A study of Rattus norvegicus with 6 samples.

Results

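The genes of the lysosome and of its proton pump were followed on 6 Affymetrix arrays of NRK-52E, a rat cell line that grew from kidney tubules. In 3 samples a lentiviral hairpin (shRNA) was aimed at AMPKα2, which is one of the catalytic subunits of AMP-activated protein kinase (AMPK), and 3 samples had the control virus. All cells of both groups had also received TGF-β1, given at 10 ng/mL over 24 h, a cytokine under which epithelial cells take on mesenchymal traits, and cells without TGF-β1 were not analysed here. Per the labels, replicates are biological, with no word on separate infections or clones, so the p-values measure the spread between these samples. The genes were a list of 46 symbols of lysosomal enzymes, membrane proteins and regulators, plus every gene whose symbol starts with Atp6v or Atp6ap, the subunits of the vacuolar proton pump. Of the list, 45 were measured (Npc1 was not analysed here) and 23 pump genes joined them, which gave 68 of the 14217 genes with a probe set paired with 1 gene. They were sorted into 4 classes by the role of the protein: 23 genes of the V-ATPase, 12 proteases, 21 glycosidases and other hydrolases, and 12 membrane, sorting and regulatory genes.

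Lysosomes are acidic organelles in which proteases, glycosidases, sulfatases and lipases break down material brought in by endocytosis and autophagy. The V-ATPase pumps protons into them: its V1 sector in the cytosol hydrolyses ATP and turns a ring of V0 subunits in the membrane. Transcription factors of the MiT/TFE family (TFEB, TFE3 and MITF) drive many lysosomal genes through an E-box motif in their promoters, and AMPK can be activated on the lysosomal surface. Tubule cells of the kidney depend on lysosomes to degrade proteins taken up from the filtrate, and intercalated cells of the collecting duct use a V-ATPase with particular subunit isoforms to secrete acid.

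The values were deposited as log2 expression, from 2.37 to 13.84. Over all 31042 probe sets the arrays with the hairpin had a narrower range, with SDs of 1.76 to 1.82 against 2.17 to 2.19 in control virus cells, while means per array were nearly equal. Changes followed the deposited level across all genes: 4987 genes with a mean level under 6 had a median log2 fold change (AMPKα2 shRNA minus control) of 0.64, and 4219 genes at 8 or more had -0.64. The array's added control transcripts moved with the groups as well, by -1.02 for BioB, -0.90 for BioC, -0.62 for BioDn and 0.13 for CreX, and their part in the other values was not tested. Values under quantile scaling, cyclic loess (called loess) and median centring (medians aligned) are therefore given beside the deposited ones, and genes that passed one way in all 4 scalings are named as such. Genes of like level are those in the same unit of mean log2 expression. Prkaa2, which encodes AMPKα2, stood at 6.63 ± 0.14 in AMPKα2 hairpin cells and 6.84 ± 0.05 in control virus cells (SD, n = 3 each), a log2 fold change of -0.21 (SE 0.09) that did not pass (limma, adjusted p = 0.0552), so the groups are named as labelled. Prkaa1, which encodes the AMPKα1 subunit, was at 6.29 ± 0.14 with the hairpin and 8.63 ± 0.07 in the control, a change of -2.34, lower in all 4 scalings. Its other probe sets had -1.03 and, at a control level of 3.87, 0.55, and the mean of its probe sets gave -0.94. Of 8 measured markers of tubule epithelium 6 were higher with the hairpin and 1, Krt8 (12.24 with the hairpin and 12.49 in the control), was lower, and of 6 proximal tubule markers 5 were higher. Epcam (3.47 and 2.97) and Cdh1 (4.74 and 4.31) stood low in both groups. All 4 fibroblast markers and both endothelial ones were higher too. At a level of 6 or more lay 2 of the tubule epithelium markers, 3 proximal tubule, 2 fibroblast and 0 endothelial ones. Among all genes 79.9% were higher below a level of 6, 34.4% at 6 to 8 and 11.6% at 8 or more. The log2 summed level of the fibroblast markers, 9.77 to 9.92 against 7.61 to 7.66 in control virus cells, was mostly that of Col1a1, at 9.44 with the hairpin and 6.46 in the control. The part of such cells in the lysosomal changes was not tested. In these bulk arrays a change in each cell and a change in the mix of cells cannot be told apart.

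Of the 68 lysosomal genes, 31 were higher with the AMPKα2 hairpin, 20 were lower and 17 did not pass (limma, adjusted p of 0.05 over all genes). Of all genes measured 85.1% passed, 43.6% higher and 41.5% lower. The median log2 fold change of the lysosomal genes was 0.14, and that of all genes was 0.05. Changes of at least 2-fold were seen in 6 rising and 5 falling members of the 68. Of all 14217 genes, 1654 rose and 2639 fell by as much. As deposited the largest rise was that of the cathepsin gene Ctsf, with 1.54 (1.24 under quantile scaling and 0.97 under loess, where Atp6v0b was highest, at 1.91 and 1.95), and the largest fall that of the acid phosphatase gene Acp2, with -1.94. By class, 11 V-ATPase genes rose and 5 fell, 9 proteases rose and 1 fell, 7 glycosidases and other hydrolases rose and 11 fell, and 4 membrane and regulatory genes rose and 3 fell. The groups did not overlap in 33 members that were higher and 21 that were lower with the hairpin, and overlapped in 14, against 87.1% of the whole table without overlap.

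Most of these genes lay at high deposited levels, where falls prevailed in the table as a whole. Of the 68 members, 43 had a mean level of 8 or more, and 14 of them rose, 14 fell and 15 did not pass. Among all genes at that level 11.6% rose and 71.8% fell. The median change of the 43 was 0.03, against -0.64 for all genes at that level. At 8 or more the gap was widest in the bin from 9 to 10. There 12 members had a median change of 0.09 and all 1180 genes had -0.71. The medians of members and of all genes were -0.35 and -0.71 at 8 to 9, and -0.01 and -0.465 at 10 to 11. At 11 to 12 they were 0.16 and -0.22, and at 12 or more 0.15 and -0.16. At a level under 6 the order was closer to that of the table: 12 of 14 members rose and 2 fell, where 79.9% of all genes rose and 7.9% fell, and the median was 0.74 against 0.64. Over all levels, 51 of the 68 members had a change above the median of genes in the same unit of level and 17 did not, where 7105 of all 14217 genes did. The genes of the table are not independent of each other, so these counts are a description.

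**Figure D1:**
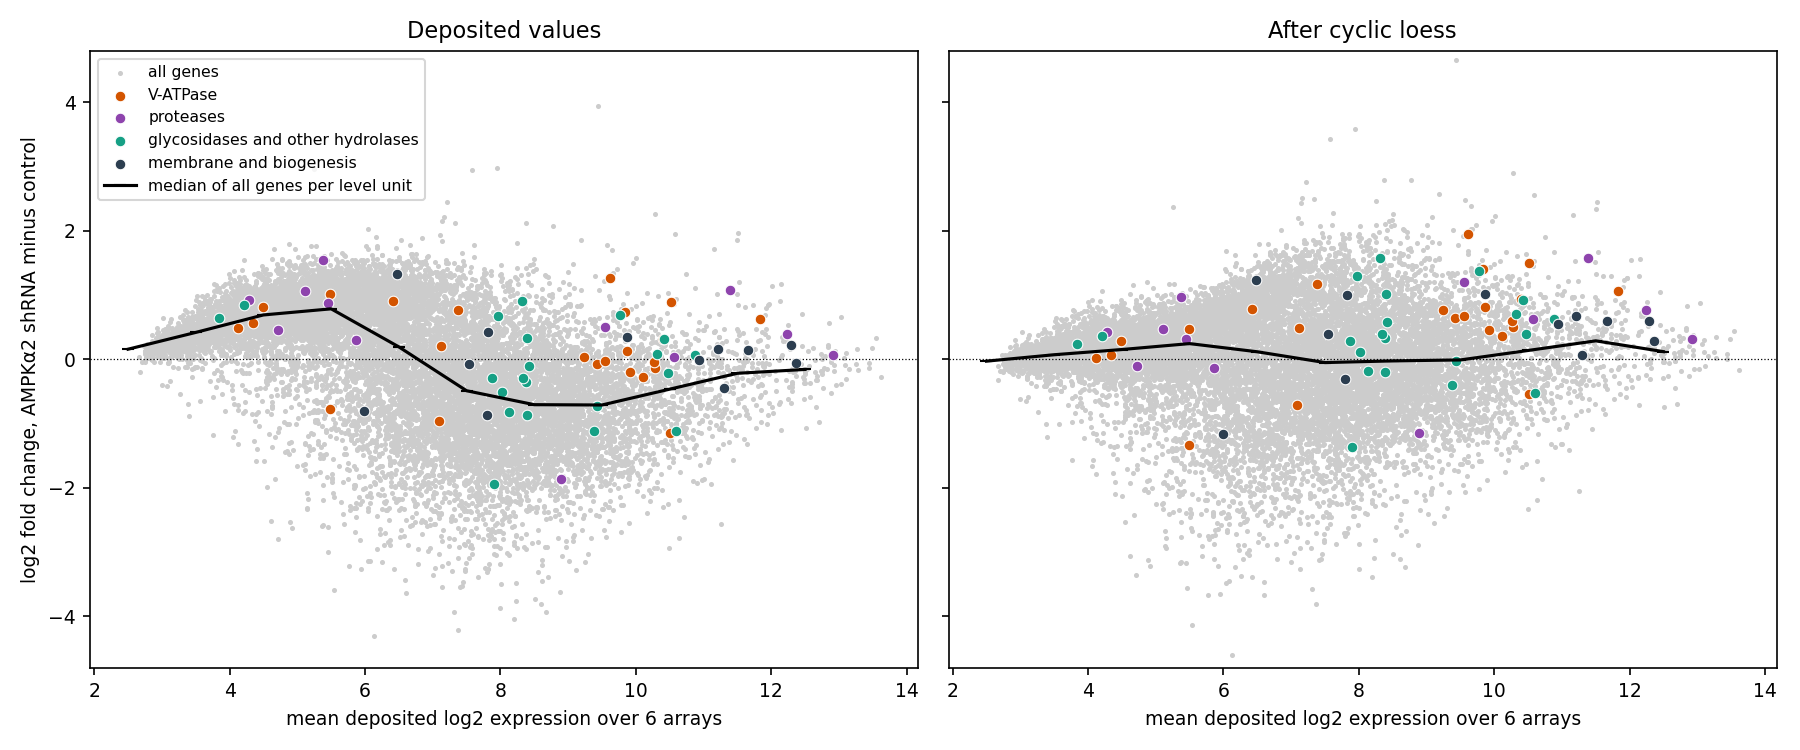
Log2 fold change (AMPKα2 shRNA minus control) of each gene against its mean deposited log2 expression over 6 arrays, as deposited on the left and under loess on the right. Grey points are all genes and coloured points the lysosomal genes by class. The black line joins the median of all genes in each unit of level. At 9 to 10 that median was -0.71 as deposited, while 12 lysosomal genes there had a median of 0.09. At 8 to 9 all genes had -0.71 and 9 lysosomal genes -0.35.

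The scaling between arrays changed how many of these genes were called higher. Under quantile scaling 47 members were higher and 10 lower, with a median change of 0.48, where 72.7% of all genes passed, 43.8% higher and 28.9% lower. Under loess the counts were 48 and 11 with a median of 0.48, where 71.8% of all genes passed, 40.2% higher and 31.5% lower. Median centring gave 23 higher and 27 lower, with a median of -0.08, where 83.1% of all genes passed, 35.0% higher and 48.2% lower. At a level of 8 or more, 34 of 43 members were higher and 6 lower under loess, against 40.6% and 38.5% of all genes at that level. Below a level of 6, 6 of 14 were higher and 2 lower under that scaling, against 38.0% and 17.3% of all genes. The median over all genes moved as well, to 0.16 under quantile scaling, 0.09 under loess and -0.17 with medians aligned. In all 4 scalings 20 members rose and 10 fell, where 25.5% of all genes rose and 26.4% fell in all 4. At a level of 8 or more 9 rose and 5 fell in all 4, against 7.32% and 36.9% of all genes there, and below a level of 6 the counts were 6 and 2, against 38.0% and 7.9%. The 20 were 7 V-ATPase genes, 7 proteases, 4 glycosidases and 2 of the membrane and regulatory class. Another 13 members passed in one direction in some scalings and in the opposite direction in others, as did 1351 of all 14217 genes. At a level of 8 or more these were 11 of 43 members and 982 of all 4219 genes.

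**Figure D2:**
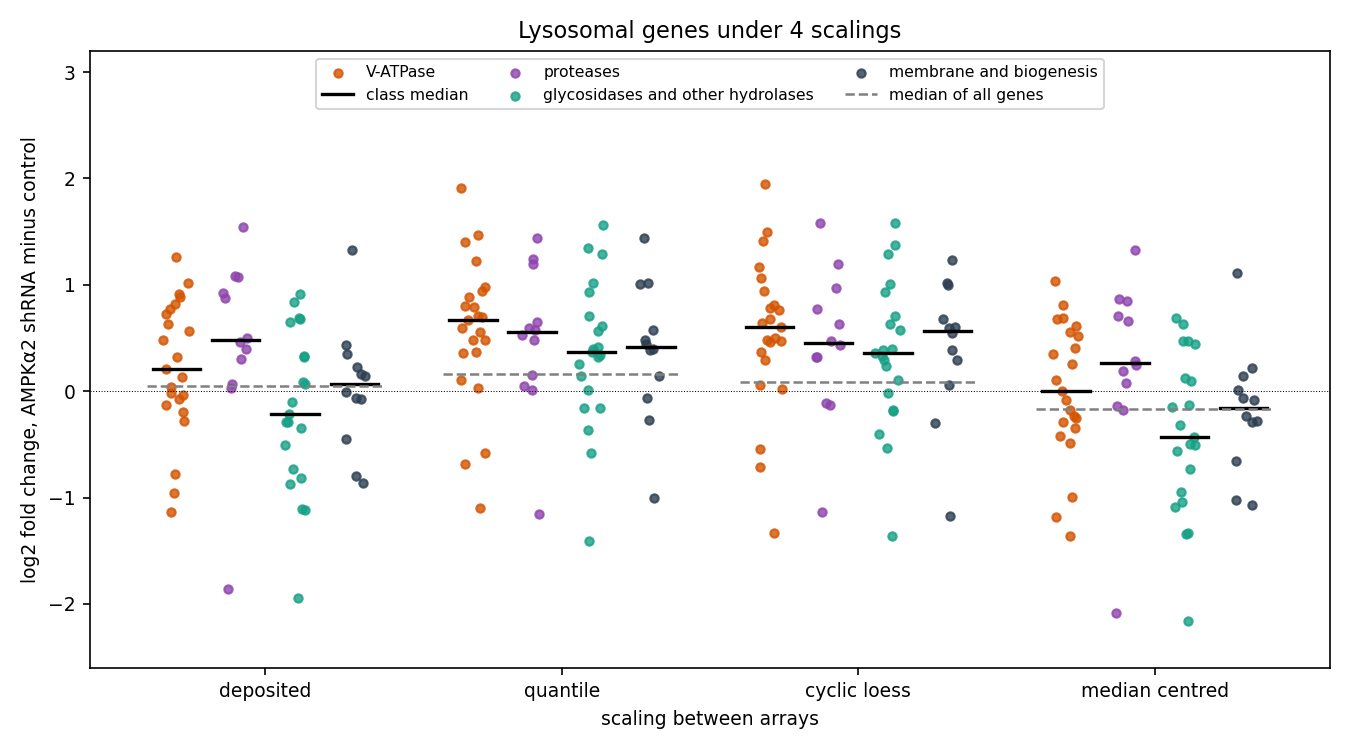
Log2 fold change of the 68 lysosomal genes under 4 scalings between arrays, by class. Each point is a gene, black bars are class medians and dashed lines the median of all genes. The V-ATPase median was 0.21 as deposited, 0.67 under quantile scaling, 0.60 under loess and -0.0 with medians aligned. That of all genes stayed between -0.17 and 0.16.

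Among the transcription factors, Tfeb and its relatives parted. Tfeb read 8.13, 8.0 and 7.99 in AMPKα2 hairpin cells and 7.67, 7.63 and 7.52 in control virus cells. It rose by 0.43 (SE 0.09, adjusted p = 0.000631), by 1.02 under quantile scaling, 1.0 under loess and 0.22 with medians aligned. Tfe3 had 7.39, 7.38 and 7.35 with the hairpin, below the 8.12, 8.28 and 8.29 of the control, and fell by 0.86 (SE 0.08, adjusted p = 3.03e-06). That fall was smaller under quantile scaling (-0.27) and loess (-0.30), and 2 other probe sets of Tfe3, with changes of 0.22 and -0.08, did not pass as deposited. Mitf, at 5.42, 5.65 and 5.69 in AMPKα2 hairpin cells and 6.27, 6.45 and 6.43 in control virus cells, fell by 0.80 (SE 0.10, adjusted p = 1.87e-05). Both probe sets of Mitf fell, and its change was -1.0 under quantile scaling and -1.17 under loess. The rise of Tfeb and the falls of Tfe3 and Mitf passed in all 4 scalings, with groups that did not overlap.

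MiT/TFE proteins bind the palindrome CACGTG, most often within a longer form, and promoter windows were searched for it (RefSeq, build GRCr8, 250 bases before to 50 after the annotated start of the gene). Windows were found for 56 members. The E-box CACGTG lay in 10 of them (17.9%), against 8.94% of 11700 measured genes with a window and 6.65% of all 27457 windows. The longer TCACGTGA lay in 6 (10.7%), against 1.46% of measured genes and 0.867% of all windows. A CLEAR-type palindrome of 10 bases, which holds both, lay in 0 of the 56, against 0.479% of measured genes and 0.277% of all windows. The longer motif holds the shorter, and each reads the same on both strands. The 6 genes with TCACGTGA were Ctsd, Cln3 and Atp6v0e1, which rose by 1.08, 1.33 and 0.73, Lamp1, which fell by 0.45, and Atp6v0d1 and Mcoln1, whose changes of -0.04 and -0.07 did not pass. Of these, Ctsd, Cln3 and Atp6v0e1 rose in all 4 scalings. Under quantile scaling and loess Atp6v0d1 (0.59 and 0.60) and Mcoln1 (0.44 and 0.39) were higher too, Lamp1 did not pass, and none was lower. Lower with medians aligned, of the 6 genes, were Atp6v0d1 (-0.25), Mcoln1 (-0.29) and Lamp1 (-0.66). For 4 of them the motif lay before the start, and 100 bases around it are shown as examples of members that share the motif; capitals mark TCACGTGA, and each sequence is on the minus strand, at chr1:206968822-206968921 for Ctsd, chr1:190597930-190598029 for Cln3, chr16:83075070-83075169 for Lamp1 and chr19:50357249-50357348 for Atp6v0d1.
Ctsd: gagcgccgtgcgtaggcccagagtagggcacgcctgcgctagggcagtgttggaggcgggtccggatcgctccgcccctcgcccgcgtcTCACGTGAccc
Cln3: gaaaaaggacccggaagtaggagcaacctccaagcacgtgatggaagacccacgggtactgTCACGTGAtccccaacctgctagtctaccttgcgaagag
Lamp1: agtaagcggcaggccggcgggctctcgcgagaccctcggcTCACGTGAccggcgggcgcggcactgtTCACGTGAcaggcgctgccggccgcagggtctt
Atp6v0d1: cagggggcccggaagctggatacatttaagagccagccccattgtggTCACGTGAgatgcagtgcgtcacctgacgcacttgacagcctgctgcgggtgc
The window of Lamp1 held 2 copies of TCACGTGA, and those of the other 3 genes shown held 1. In Atp6v0e1 and Mcoln1 the motif lay after the start, from position 24 and position 4. A match in a window is a description and was not tied to binding.

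The V-ATPase genes moved in both directions, and the membrane ring rose. Of 8 V0 genes, 4 rose and 2 fell, and of 12 V1 genes, 6 rose and 2 fell, where 43.6% of all genes rose and 41.5% fell. In the whole class 7 of 23 genes rose and 3 fell in all 4 scalings, where 25.5% and 26.4% of all genes did. Atp6v0b, a subunit of the proton-carrying ring, read 10.32, 10.17 and 10.26 in AMPKα2 hairpin cells and 8.98, 9.02 and 8.97 in control virus cells. It had the largest rise of the pump genes, 1.26 (SE 0.08, adjusted p = 1.63e-07), above 98.98% of genes of its level, while its other probe set, at a control level of 5.72, had a change of 0.10 that did not pass and was lower under loess, at -0.36. Atp6v0c, the main ring subunit, stood at 12.19, 12.06 and 12.20 with the hairpin and at 11.52, 11.49 and 11.55 in the control. The rise of 0.63 (SE 0.08, adjusted p = 2.92e-05) passed in all 4 scalings, at 0.41 to 1.06. Atp6v0d1, which joins the ring to the stalk, had overlapping groups of 10.25, 10.35 and 10.15 with the hairpin and 10.27, 10.26 and 10.34 in the control. Its change of -0.04 did not pass as deposited. Atp6v0d1 was higher under loess, at 0.60, and lower with medians aligned, at -0.25.

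Subunit a, which forms the path of the protons and places the pump in a given membrane, was read for 3 isoforms. Atp6v0a1 had 6.76, 6.95 and 6.91 in AMPKα2 hairpin cells against 6.04, 5.98 and 5.88 in control virus cells. Atp6v0a4, the isoform of acid-secreting kidney cells, had 5.16, 4.98 and 5.18 with the hairpin against 5.68, 6.0 and 5.97 in the control. The first rose by 0.91 (SE 0.09, adjusted p = 3.19e-06) and the second fell by 0.78 (SE 0.11, adjusted p = 4.44e-05), each in all 4 scalings. The fall of Atp6v0a4 stood against a median of 0.79 for genes of its level, and 7.81% of those had a lower value. Atp6v0a2 read 7.40, 7.43 and 6.85 in AMPKα2 hairpin cells and 7.0, 6.98 and 7.06 in control virus cells. Its groups overlapped through the lone low value of replicate 3. Its change of 0.21 (adjusted p = 0.175) did not pass as deposited, passed without that array, at 0.40, and was higher under quantile scaling (0.56) and loess (0.48). Tcirg1, which encodes the remaining isoform of subunit a and was added after its values were seen, fell by 0.97 (SE 0.15, adjusted p = 0.000129), and neither -0.22 under quantile scaling nor -0.26 under loess passed. The mean of its 2 probe sets gave -0.31.

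Subunit e is a small membrane protein with a pair of isoforms, which moved apart. Atp6v0e1 read 10.22, 10.34 and 10.06 in AMPKα2 hairpin cells and 9.49, 9.49 and 9.44 in control virus cells. Atp6v0e2 read 6.6, 6.59 and 6.65 with the hairpin and 7.54, 7.61 and 7.57 in the control. Atp6v0e1 rose by 0.73 (SE 0.09, adjusted p = 2.19e-05) and Atp6v0e2 fell by 0.96 (SE 0.08, adjusted p = 7.73e-07). Both directions passed in all 4 scalings, and the difference between the isoforms was not itself tested.

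In the V1 sector, subunits A and B form the catalytic head. Atp6v1a rose by 0.32 (SE 0.08, adjusted p = 0.00396), with 10.66, 10.50 and 10.53 in AMPKα2 hairpin cells and 10.25, 10.18 and 10.28 in control virus cells, and its change of 0.11 with medians aligned did not pass. Atp6v1b2, the widely expressed B isoform, read 9.43, 9.40 and 9.32 with the hairpin and 9.48, 9.43 and 9.47 in the control. Its change of -0.07 did not pass as deposited. Atp6v1b2 was higher under loess, at 0.64, and lower with medians aligned, at -0.29. A second probe set of Atp6v1b2 rose by 0.56. The kidney isoform Atp6v1b1 read 4.82, 4.72 and 5.15 in AMPKα2 hairpin cells and 4.18, 4.19 and 3.85 in control virus cells. Its rise of 0.82 (SE 0.13, adjusted p = 0.000124) lay near the median of 0.69 for genes of its level, and under loess its change of 0.29 did not pass.

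Both directions were seen in the stalks of the pump. Atp6v1d, a subunit of the turning central stalk, read 10.05, 10.03 and 9.74 in AMPKα2 hairpin cells and 11.08 in each control virus sample. It fell by 1.14 (SE 0.10, adjusted p = 1.14e-06), the strongest fall of the pump as deposited, and fell in all 4 scalings, at -1.36 to -0.54, where Atp6v0a4 was lower under quantile scaling (-1.10) and loess (-1.33). Atp6v1f, its partner in that stalk, had a change of 0.13 that did not pass as deposited, with overlapping groups, and of 0.81 under loess. Atp6v1e1, of the outer stalk, read 11.05, 11.10 and 10.75 with the hairpin and 10.09, 10.12 and 10.02 in the control. It rose by 0.89 (SE 0.10, adjusted p = 1.16e-05), more than 98.2% of genes of its level, and in all 4 scalings. Atp6v1g1, the common G isoform of the outer stalk, had overlapping groups of 9.22, 9.39 and 9.16 in AMPKα2 hairpin cells and 9.24, 9.19 and 9.23 in control virus cells, with a change of 0.04 that did not pass as deposited and was 0.76 under loess. The isoforms Atp6v1g2 (4.32, 4.14 and 4.62 with the hairpin, 3.90, 3.79 and 3.95 in the control) and Atp6v1g3 (4.83, 4.55 and 4.50 with the hairpin, 3.99, 4.25 and 3.93 in the control) rose by 0.48 and 0.57. Both rises were below the median of 0.69 for genes of their level, and under loess their changes of 0.02 and 0.06 did not pass.

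Subunit C, which controls the joining of V1 to V0, also had a pair of isoforms. Atp6v1c1 read 9.83, 9.85 and 9.76 in AMPKα2 hairpin cells and 10.06, 10.01 and 9.98 in control virus cells. Its small change of -0.20 (SE 0.08, adjusted p = 0.0316) was lost without any one control array, at -0.22 to -0.18, and turned to 0.48 under quantile scaling and 0.46 under loess. Atp6v1c2, at 5.92, 5.92 and 6.15 with the hairpin and 4.98, 5.08 and 4.86 in the control, rose by 1.02 (SE 0.10, adjusted p = 2.65e-06), and in all 4 scalings. The median for genes of its level was 0.79, and under loess Atp6v1c2 rose by 0.47. Markers of intercalated cells, which use several of the rarer isoforms, were all 4 higher with the hairpin, 3 of them at a level below 6, where 79.9% of all genes were higher, with a log2 summed level of 7.85 to 8.03 against 6.97 to 7.23 in control virus cells. Foxi1, the factor that defines those cells, stood at 3.62 and 3.08, in the lowest 2.31% of genes by level, and the part of such cells was not tested. Of the accessory proteins, Atp6ap2, the prorenin receptor, read 10.13, 9.99 and 9.80 in AMPKα2 hairpin cells and 10.29, 10.20 and 10.26 in control virus cells. Its change of -0.28 passed as deposited (adjusted p = 0.0217), was lost without control replicate 1 or 3 (-0.26 and -0.27), was 0.37 under loess, and its other probe set rose by 0.27. Atp6ap1l rose by 0.77, and in all 4 scalings. The accessory gene Atp6ap1 and Atp6v1h, a regulator of the V1 sector, had changes of -0.13 and -0.02 that did not pass as deposited, with overlapping groups, and were higher under loess, by 0.50 and 0.68. With medians aligned Atp6ap1 was lower, at -0.35, and Atp6v1h, at -0.23, did not pass.

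**Figure D3:**
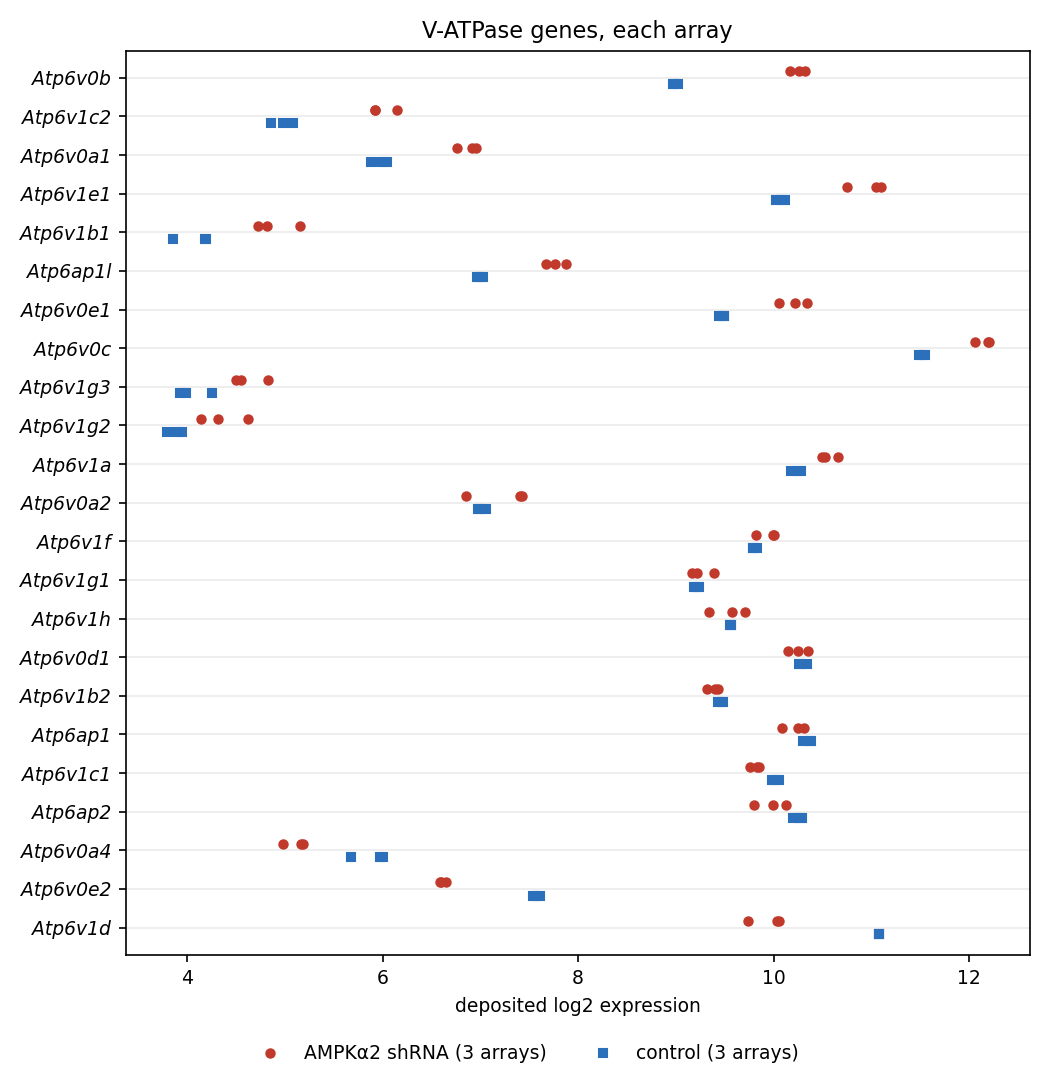
Deposited log2 expression of the 23 V-ATPase genes on each array, ordered by log2 fold change from the highest at the top. Red circles are the 3 AMPKα2 shRNA arrays and blue squares the 3 control arrays: Atp6v0b, at 10.17 to 10.32 with the hairpin against 8.97 to 9.02, heads the list, and Atp6v1d, at 9.74 to 10.05 against 11.08, closes it.

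Of the 12 proteases, 9 rose, 1 fell and 2 did not pass as deposited. All 6 with a level below 6 rose, where 79.9% of all genes rose, and of the 6 at 8 or more 3 rose and 1 fell, where 11.6% of all genes rose and 71.8% fell. In all 4 scalings 7 proteases rose and 1 fell, where 25.5% and 26.4% of all genes did. Ctsd, the aspartic protease cathepsin D, read 11.99, 11.96 and 11.86 in AMPKα2 hairpin cells and 10.89, 10.85 and 10.82 in control virus cells. All values with the hairpin lay above those of the control, and the rise of 1.08 (SE 0.08, adjusted p = 4.30e-07) exceeded that of 97.7% of genes of its level. Ctsb, the cysteine protease cathepsin B, read 12.47, 12.42 and 12.42 with the hairpin and 12.04, 12.03 and 12.04 in the control. It rose by 0.40 (SE 0.08, adjusted p = 0.000518), and by 0.19 to 0.77 over the 4 scalings. Lgmn, which encodes legumain, an endopeptidase that also processes cathepsins, rose by 0.50 (SE 0.09), with 9.84, 9.88 and 9.67 in AMPKα2 hairpin cells and 9.28, 9.31 and 9.30 in control virus cells.

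Cathepsins at low levels rose too, as most genes of their level did. Ctsf read 6.11, 6.34 and 5.99 in AMPKα2 hairpin cells and 4.44, 4.97 and 4.40 in control virus cells, a rise of 1.54 (SE 0.15, adjusted p = 3.40e-06) that exceeded 99.1% of genes of its level. Ctsc, a dipeptidyl peptidase that activates serine proteases, read 5.71, 5.61 and 5.62 with the hairpin and 4.58, 4.53 and 4.62 in the control, and rose by 1.07 (SE 0.08). The aminopeptidase gene Ctsh read 4.90, 4.61 and 4.73 in AMPKα2 hairpin cells and 3.74, 3.80 and 3.93 in control virus cells, and rose by 0.92 (SE 0.10). The rises of Ctsc and Ctsh stood beside medians of 0.79 and 0.69 for genes of their levels, were 0.47 and 0.43 under loess, and passed in all 4 scalings. Ctss, the cathepsin of antigen-presenting cells, rose by 0.88, and in all 4 scalings. The median for genes of its level was 0.79, and under loess Ctss rose by 0.32. Ctsk and Ctsz rose by 0.30 and 0.46 as deposited, and their changes under loess, -0.13 and -0.11, did not pass. Ctsk was lost without AMPKα2 shRNA replicate 1 (0.19) or control replicate 2 (0.28). Of 7 macrophage and osteoclast markers, 2 of them at a level of 6 or more, 6 were higher and 1, Cd14, was lower with the hairpin. Among all genes 79.9% were higher below a level of 6, 34.4% at 6 to 8 and 11.6% at 8 or more. The log2 summed level, 9.63 to 9.82 against 10.87 to 10.95 in control virus cells, was mostly that of Cd14. Cd14 was at 9.08 with the hairpin and 10.78 in the control. The leukocyte marker Ptprc was at 5.07 and 4.14, and the part of such cells in the values of Ctss and Ctsk was not tested.

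Tpp1, a tripeptidyl peptidase whose loss causes a childhood neuronal storage disease, was the protease that fell. It read 8.24, 7.90 and 7.76 in AMPKα2 hairpin cells and 9.83, 9.80 and 9.84 in control virus cells, and its log2 fold change was -1.86 (SE 0.12, adjusted p = 1.35e-07). The fall passed in all 4 scalings, at -2.08 to -1.14, and 8.08% of genes of its level had a lower value. Ctsl, the cysteine protease cathepsin L, read 13.02, 12.84 and 13.01 with the hairpin and 12.89, 12.90 and 12.88 in the control, near the highest deposited value of 13.84. The groups overlapped and its change of 0.07 did not pass as deposited, but 0.32 under loess did. Its other probe set stood at 9.84 with the hairpin and 11.44 in the control and fell by 1.59, so the probe sets of Ctsl disagreed. Ctsa, a carboxypeptidase that also protects the sialidase encoded by Neu1, had a change of 0.03 that did not pass as deposited and 0.63 under loess.

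Among the 21 glycosidases and other hydrolases, 7 rose and 11 fell as deposited, where 43.6% of all genes rose and 41.5% fell. Of the 16 at a level of 8 or more, where 11.6% of all genes rose and 71.8% fell, 4 rose and 9 fell. Under loess 13 of the 21 were higher and 5 lower, where 40.2% and 31.5% of all genes were. With medians aligned 5 were higher and 12 lower, where 35.0% and 48.2% of all genes were. Neu1, the lysosomal sialidase, had the largest rise, with 8.78, 8.85 and 8.70 in AMPKα2 hairpin cells and 7.84, 7.85 and 7.92 in control virus cells. It rose by 0.91 (SE 0.08, adjusted p = 1.75e-06), its other probe set rose by 1.0, and 97.3% of genes of its level had a lower value. Gaa, the acid α-glucosidase that degrades glycogen, read 10.17, 10.15 and 10.01 with the hairpin and 9.40, 9.43 and 9.44 in the control. It rose by 0.69 (SE 0.08) with a like rise of 0.79 in its other probe set. Gla, the α-galactosidase lost in Fabry disease, read 8.38, 8.39 and 8.18 in AMPKα2 hairpin cells and 7.59, 7.65 and 7.65 in control virus cells and rose by 0.68 (SE 0.09), while the change of 0.23 of its other probe set did not pass as deposited. Manba, a β-mannosidase, rose by 0.84 (SE 0.10) at a low level, with 4.68, 4.63 and 4.57 with the hairpin and 3.60, 3.78 and 3.98 in the control. The median for genes of its level was 0.69, and under loess Manba rose by 0.36. The rises of Neu1, Gaa, Gla and Manba passed in all 4 scalings.

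Acp2, a lysosomal acid phosphatase, had the largest fall of all 68 genes. It read 7.01, 7.05 and 6.72 in AMPKα2 hairpin cells and 8.84, 8.98 and 8.80 in control virus cells, and its log2 fold change was -1.94 (SE 0.10, adjusted p = 4.70e-08). Ids, the iduronate sulfatase of heparan and dermatan sulfate breakdown, read 10.06, 9.99 and 10.06 with the hairpin and 11.10, 11.21 and 11.18 in the control, and fell by 1.12 (SE 0.08). Hexa, the α chain of β-hexosaminidase, fell by 1.11 (SE 0.12), with 8.90, 9.04 and 8.54 in AMPKα2 hairpin cells and 9.89, 9.92 and 9.99 in control virus cells. Its fall was smaller under quantile scaling (-0.36) and loess (-0.40). Ppt1, which removes palmitate from proteins, read 8.01, 7.97 and 7.88 with the hairpin and 8.89, 8.78 and 8.81 in the control, and fell by 0.87 (SE 0.08), with -0.16 under quantile scaling and -0.19 under loess. In each of these 4 genes the groups did not overlap and the fall passed in all 4 scalings. Of genes of like level, 6.74% had a lower value than Acp2, 18.58% than Ids, 30.25% than Hexa and 41.58% than Ppt1.

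The other hydrolases split by scaling. Naglu, Arsa, Asah1 and Smpd1, which act on heparan sulfate, sulfatide, ceramide and sphingomyelin, had deposited changes of -0.29, -0.35, -0.29 and -0.21 that passed, and under loess they were higher, by 0.29, 0.33, 0.39 and 0.40. The call of Smpd1 was lost without AMPKα2 shRNA replicate 3 (-0.13) or without any 1 control array (-0.21 each). The second probe set of Arsa fell both as deposited (-1.42) and under loess (-0.79). Idua and Gusb, which cleave glycosaminoglycans, fell by 0.51 and 0.73 as deposited, and their changes under loess, 0.11 and -0.02, did not pass. Arsb fell by 0.82 and by 0.18 under loess, and did not pass under quantile scaling (-0.16). Fuca1 and Lipa, a fucosidase and the acid lipase, rose by 0.32 and 0.33, and their changes of 0.10 and 0.12 with medians aligned did not pass. Man2b1, with a change of -0.10, and the sphingolipid activator genes Psap and Gm2a, with 0.07 and 0.09, did not pass as deposited, and had 0.58, 0.63 and 0.71 under loess. Man2b1 was lower with medians aligned, at -0.32, where neither Psap (-0.15) nor Gm2a (-0.13) passed. Acp5, a phosphatase of osteoclasts and macrophages at a low level of 4.17 and 3.52, rose by 0.65, and its change of 0.24 under loess did not pass.

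By the probe sets used, the membrane and sorting genes apart from Cln3 moved by -0.45 to 0.35 as deposited. Cln3, a membrane protein lost in Batten disease, read 7.16, 6.96 and 7.31 in AMPKα2 hairpin cells and 6.12, 5.71 and 5.62 in control virus cells. It rose by 1.33 (SE 0.14, adjusted p = 4.88e-06), its other probe sets rose by 1.46 and 0.74, and the rise passed in all 4 scalings. Lamp1, an abundant glycoprotein of the lysosomal membrane, read 11.14, 11.11 and 10.99 with the hairpin and 11.54, 11.51 and 11.54 in the control. Its change of -0.45 passed as deposited (SE 0.08, adjusted p = 0.000352), but neither -0.06 under quantile scaling nor 0.06 under loess passed. Of its other probe sets one, at 6.12 with the hairpin and 7.31 in the control, fell by 1.19 as deposited and had -1.14 under loess. The other probe set of Lamp1, with 0.04, did not pass as deposited and was lower under loess, at -0.27. Lamp2, its relative that also serves chaperone-mediated autophagy, read 11.10, 10.90 and 10.79 in AMPKα2 hairpin cells and 10.95, 10.95 and 10.92 in control virus cells. The groups of Lamp2 overlapped and its change of -0.01 did not pass, but its other probe set fell by 1.28 and, under loess, by 0.56, where the one used rose by 0.55. With medians aligned the probe set used was lower, at -0.23.

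Scarb2, the membrane carrier of glucocerebrosidase, read 10.12, 10.11 and 9.90 in AMPKα2 hairpin cells and 9.72, 9.67 and 9.68 in control virus cells. It rose by 0.35 (SE 0.09, adjusted p = 0.0033), with 1.02 under loess and 0.14 with medians aligned, which did not pass. Grn, which encodes progranulin, read 12.45, 12.39 and 12.36 with the hairpin and 12.15, 12.19 and 12.18 in the control, and rose by 0.23 (SE 0.08, adjusted p = 0.017). The call of Grn was lost without any 1 control array, at 0.22 to 0.24, and with medians aligned (0.01). Npc2, a carrier of cholesterol, M6pr, a receptor that sorts enzymes to lysosomes, the tetraspanin gene Cd63 and the cation channel gene Mcoln1 had changes of 0.14, 0.16, -0.06 and -0.07 that did not pass. Under loess these 4 were higher, by 0.60, 0.68, 0.29 and 0.39, and with medians aligned Cd63 and Mcoln1 were lower, by 0.28 and 0.29.

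**Figure D4:**
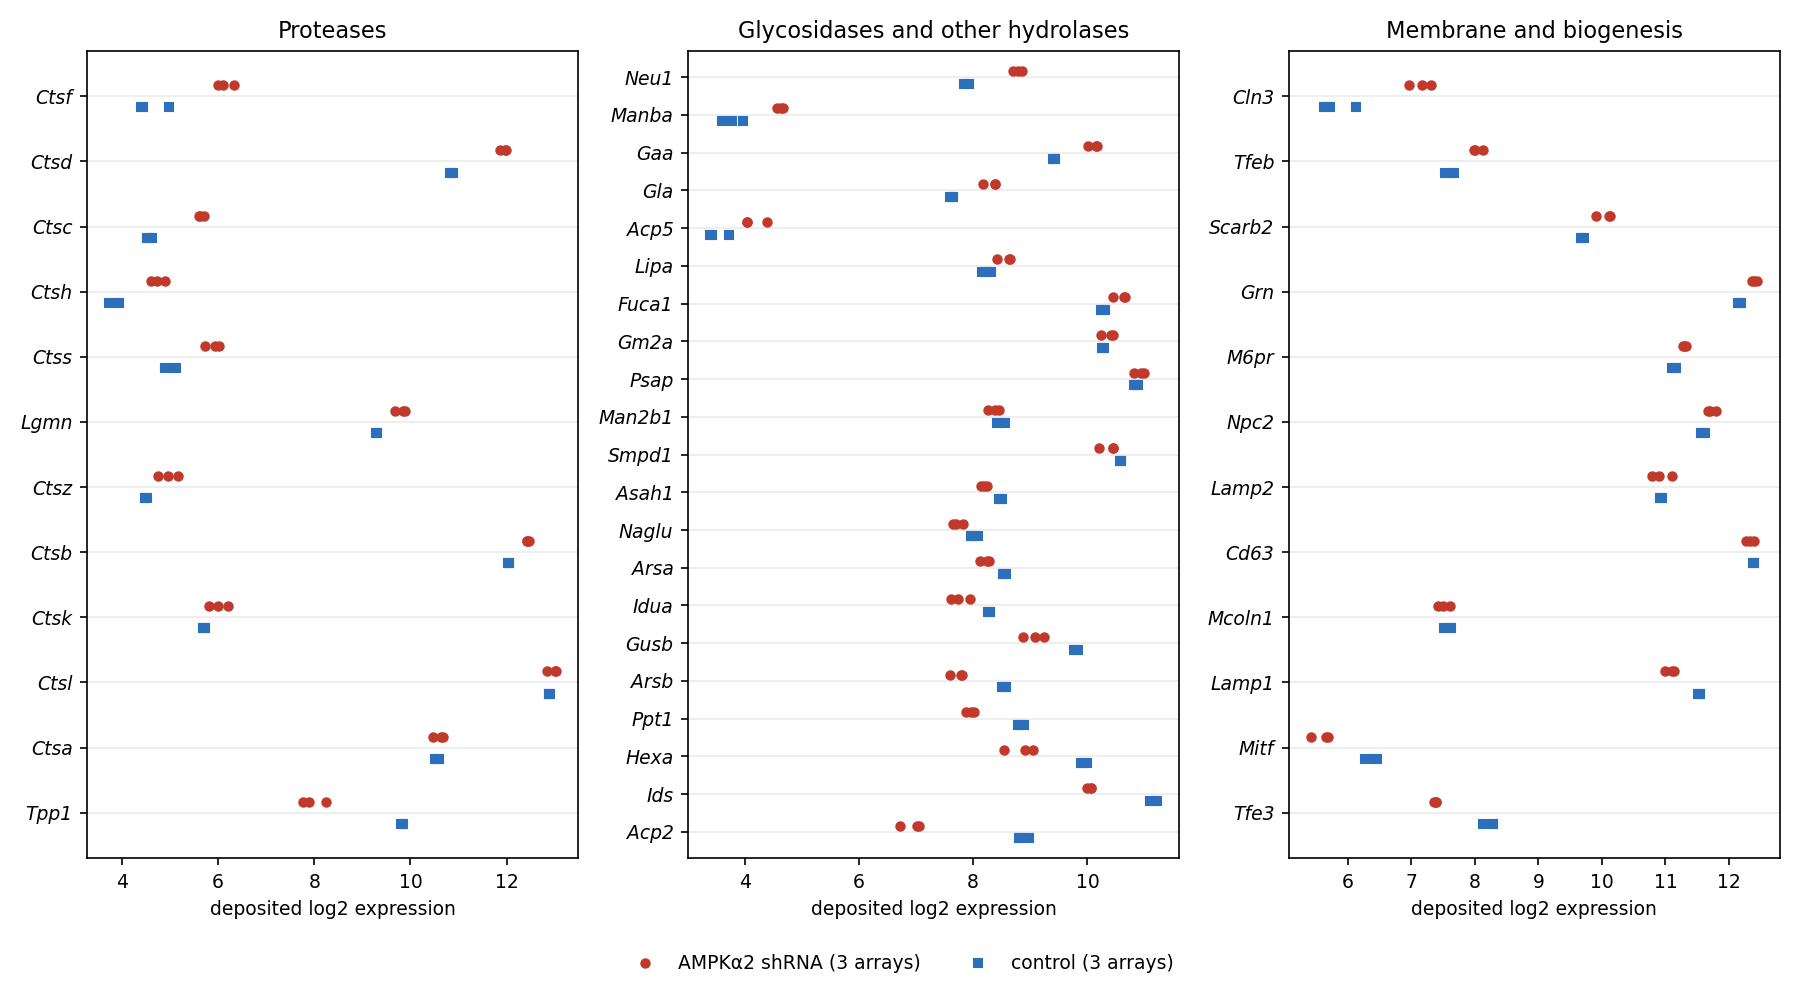
Deposited log2 expression of the other 45 lysosomal genes on each array, in panels for proteases, glycosidases and other hydrolases, and membrane and biogenesis genes, each ordered by log2 fold change from the highest at the top. Red circles are the 3 AMPKα2 shRNA arrays and blue squares the 3 control arrays: Ctsf, Neu1 and Cln3 head the panels, and Tpp1, Acp2 and Tfe3 close them.

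Further lysosomal enzymes, transporters, sorting and fusion genes and cathepsin inhibitors outside the list, 45 of which were measured, had more falls than rises as deposited. Of these, 11 rose, 19 fell and 15 missed the threshold, with a median of -0.15, where 43.6% of all genes rose and 41.5% fell. Under loess 25 were higher and 8 lower, with a median of 0.32, where 40.2% of all genes were higher and 31.5% lower. Median centring gave 8 higher and 26 lower, with a median of -0.37, where 35.0% of all genes were higher and 48.2% lower. In all 4 scalings 7 rose and 5 fell, where 25.5% and 26.4% of all genes did. Naaa, an acid amidase of the lysosome, read 7.46, 7.49 and 7.55 in AMPKα2 hairpin cells and 5.87, 5.95 and 5.76 in control virus cells, and rose by 1.63 (SE 0.08). Slc17a5 and Slc36a1, which export sialic acid and amino acids from lysosomes, rose by 1.03 and 0.99. Igf2r, the large mannose 6-phosphate receptor, read 8.97, 9.16 and 8.69 with the hairpin and 10.46, 10.43 and 10.49 in the control, and fell by 1.52 (SE 0.11, adjusted p = 4.48e-07). Cln6, of the endoplasmic reticulum, where it helps enzymes leave for the lysosome, fell by 1.26 (SE 0.08), and Vps16, of the tethering complexes that fuse vesicles with lysosomes, fell by 0.93 (SE 0.09). These 6 directions passed in all 4 scalings.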

How the data were processed

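Per the labels' protocols, biotin-labelled cRNA was prepared from total RNA with an Affymetrix one-cycle kit. The authors deposited values as log2, for each array and probe set; background correction, summarisation and normalization are not given in the sources used here. Of 31042 probe sets that were not array controls, the platform annotation gave 20826 a single gene, and each of 14217 genes was represented by its probe set of highest mean. No filter on level was applied. Hairpin and control arrays were set against each other by lmFit and eBayes of limma 3.58.1 (R 4.3.3), 2-sided and without covariates, and p-values were adjusted by Benjamini-Hochberg across the 14217 genes, with 0.05 as the threshold. Alternatives were quantile normalization, cyclic loess (3 iterations), alignment of array medians, the mean or most variable probe set, removal of the lowest 25% of genes, an intensity trend, a replicate block, an adjusted p of 0.01 and leaving out each array. The fit was tested on simulated normal values that had no shift by level between groups. That test therefore does not cover the level pattern of these arrays. Values on each array are given for up to 4 rises and 4 falls per class among genes that passed, and for isoforms, MiT/TFE genes, Lamp1, Lamp2, Ctsb, Ctsd and Ctsl; Atp6v0c, Atp6v0d1, Atp6v1a and Lgmn were added after their values were seen. For 1 gene, exact permutation of 3 against 3 arrays reaches no 2-sided p below 0.1. The members, lists and alternatives were chosen with earlier results of these data known. RefSeq promoter sequences are of build GRCr8.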

Additional observations from a re-analysis of the deposited data

How the results depend on the processing

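Scaling moved the members' counts most. Against 31 higher and 20 lower as deposited, 47 and 10 passed under quantile scaling and 48 and 11 under loess, the membrane and regulatory class had 11 changed genes under loess against 7, and the median change of 0.14 became 0.48 under quantile scaling, 0.48 under loess and, with medians aligned, -0.08. The cause was not tested. Sign changes under quantile scaling and loess were seen in Atp6ap1 (0.48 and 0.50), Atp6ap2 (0.37 and 0.37), Atp6v0d1 (0.59 and 0.60), Atp6v1b2 (0.67 and 0.64), Atp6v1c1 (0.48 and 0.46), Atp6v1h (0.71 and 0.68), Idua (0.14 and 0.11), Naglu (0.32 and 0.29), Man2b1 (0.61 and 0.58), Arsa (0.37 and 0.33), Asah1 (0.42 and 0.39), Smpd1 (0.34 and 0.40), Lamp2 (0.48 and 0.55) and Mcoln1 (0.44 and 0.39). Under quantile scaling alone Gusb turned (0.01), and under loess alone Ctsk (-0.13), Ctsz (-0.11) and Lamp1 (0.06). Cd63 turned under quantile scaling, at 0.14, which did not pass, and under loess, at 0.29, which did. With the mean and the most variable probe set, Atp6v1b2 (0.24 and 0.56), Ctsl (-0.76 and -1.59) and Man2b1 (0.35 and 0.80) turned. Prkaa2 passed at -0.42 with medians aligned, at -0.21 with the mean of probe sets and at -0.21 without the lowest 25% of genes. With each array left out, the members changed ranged from 47 to 53, V-ATPase genes from 14 to 18, proteases from 9 to 10, glycosidases and other hydrolases from 17 to 18, membrane and regulatory genes from 6 to 8, the further lysosome genes from 28 to 31, members higher from 29 to 34, members lower from 17 to 20, the median change from 0.10 to 0.17 and the change of Prkaa2 from -0.27 to -0.14. Without AMPKα2 shRNA replicate 3, whose values spread least, 34 members were higher and 19 lower. With the replicate number as a block 49 members changed, 31 higher and 18 lower, and the calls of Atp6v1c1 and Smpd1 were lost. Same-numbered arrays had correlations of deviations of -0.021, 0.014 and -0.098, and nothing in the labels pairs them. No detection call came with the deposited values, so detection at low levels was not tested.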
